A study of Mus musculus with 8 samples.

Results

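The 10 genes described here encode muscle actins and proteins of the contractile apparatus: Actc1, Acta1, Acta2, Actg2, Tagln, Cnn1, Myh11, Des, Myl9 and Tpm2. They were chosen by name once the AZD1480 and vehicle values of these arrays were known, so every difference between the treatments is given for them as a description with no test. All 10 were among the 19815 genes tested, of 27310 genes with a probe on the array. They are represented by 11 probes (Tpm2 by 2, the others by 1 each) and 29 spots per array. The arrays held total RNA from ovarian tumours of 8 female C57BL/6J mice carrying the TgMISIIR-TAg transgene, 1 tumour per array. In this model SV40 T antigen is driven by the Amhr2 (MISIIR) promoter, which is active in cells of the female reproductive tract, so the tumours come from cells that use that promoter. Both groups carry the transgene. At a tumour volume of about 500 mm3, 4 mice received the vehicle alone, made of 0.5% hypermellose and 0.1% Tween 80, and 4 received AZD1480, an inhibitor of the kinases JAK1 and JAK2, at 30 mg/kg in that vehicle. Tumour tissue was collected 6 h later. The comparison asks which transcripts of this gene set differ shortly after JAK inhibition, and in particular whether cardiac actin differs from the other actins and smooth muscle genes.

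Actins polymerise into the thin filaments that myosin pulls on, and mammals have separate genes for the cardiac (Actc1), skeletal (Acta1) and smooth muscle (Acta2, Actg2) forms beside the cytoplasmic forms Actb and Actg1 found in every cell. Acta2 is also the usual marker of pericytes, vascular smooth muscle and activated fibroblasts in tumours, and Actc1 is also made in developing skeletal muscle. Many of these genes are driven by serum response factor (Srf), which binds the CArG box, together with the actin-sensing cofactors Mrtfa and Mrtfb or with myocardin. In the muscle cell, Tagln and Cnn1 bind the thin filament, Tpm2 is a tropomyosin lying along it, Myh11 is the smooth muscle myosin heavy chain, Myl9 its regulatory light chain, and Des forms intermediate filaments.

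Promoter sequences were available in RefSeq (build GRCm38.p6) for 7 of the 10 genes: Acta1, Acta2, Actc1, Cnn1, Des, Myl9 and Tpm2. An exact CArG box, CCWWWWWWGG with W for A or T, was searched on both strands in the 250 bases before the transcription start. It was found in 3 of the 7 genes, at 47 bases before the start in Actc1, 73 bases in Acta1 and 161 bases in Myl9. Near matches with another base in the core, such as ccctatatgg in the Acta2 and Actc1 windows, were not counted. Of all 32851 promoter windows of that length, 1.467% held one. These 3 windows are printed with the exact CArG box in capitals. That of Acta2 is set beside them because Acta2 varied with Acta1 from tumour to tumour without having an exact match in this window. Actc1 lies at chr2:114052876-114053125, Acta1 at chr8:123894776-123895025 and Acta2 at chr19:34255374-34255623, all on the minus strand, and Myl9 at chr2:156775214-156775463 on the plus strand. Each reads 5′ to 3′ on the strand of the gene.

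Actc1: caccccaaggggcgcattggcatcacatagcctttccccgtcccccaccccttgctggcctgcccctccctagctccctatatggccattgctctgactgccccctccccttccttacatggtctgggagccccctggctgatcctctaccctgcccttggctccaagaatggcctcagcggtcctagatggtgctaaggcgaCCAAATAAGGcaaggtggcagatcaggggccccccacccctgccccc

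Acta1: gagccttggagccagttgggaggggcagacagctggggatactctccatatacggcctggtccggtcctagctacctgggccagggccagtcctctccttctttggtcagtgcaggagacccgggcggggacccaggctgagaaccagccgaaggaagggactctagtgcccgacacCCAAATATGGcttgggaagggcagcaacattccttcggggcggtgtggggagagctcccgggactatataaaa

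Acta2: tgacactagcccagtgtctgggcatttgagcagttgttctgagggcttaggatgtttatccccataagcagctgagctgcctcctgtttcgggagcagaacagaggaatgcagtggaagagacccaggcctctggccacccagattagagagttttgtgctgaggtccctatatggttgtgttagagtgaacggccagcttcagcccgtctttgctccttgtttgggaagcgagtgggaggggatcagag

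Myl9: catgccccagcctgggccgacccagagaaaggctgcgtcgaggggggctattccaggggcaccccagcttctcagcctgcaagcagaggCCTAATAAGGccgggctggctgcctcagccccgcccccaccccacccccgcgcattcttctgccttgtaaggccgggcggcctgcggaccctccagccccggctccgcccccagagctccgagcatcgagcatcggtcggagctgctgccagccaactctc

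The E-box CANNTG, bound by myogenic and other helix-loop-helix factors, was present in the windows of 5 of the 7 genes (Acta1, Acta2, Cnn1, Des and Tpm2) and in 66.217% of all windows. The STAT-binding element TTCNNNGAA was present in 0 of the 7 windows and in 7.02% of all windows. These are letter matches on both strands in a short window and carry no measurement of binding.

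The muscle actins are nearly identical as proteins and similar in coding sequence, so the probe decides what a signal can be ascribed to. The Acta1 probe, at chr8:126416197-126416256 of the mm9 build on the minus strand, is shown because its bases, in the reading frame of actin, belong to the conserved coding part of the gene.

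Acta1 probe: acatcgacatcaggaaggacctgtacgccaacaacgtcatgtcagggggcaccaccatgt

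The probes of Actc1 (chr2:113873064-113873123), Acta2 (chr19:34316060-34316119) and Actg2 (chr6:83462904-83462963) are separate sequences, and the longest run of bases that any pair of the 4 actin probes shares is 6. That run compares probe with probe, not a probe with the transcripts of the other actins. Cross-hybridisation with other actin transcripts was not tested for any of the 4 probes. For the Acta1 probe, in conserved coding sequence, it is uncertain which actin the signal counts. The Tagln probe lies at chr9:45738097-45738156, that of Cnn1 at chr9:21913058-21913117, that of Myh11 at chr16:14202190-14202249, that of Myl9 at chr2:156607301-156607360 and that of Des at chr1:75363404-75363629. The Tpm2 probes lie at chr4:43532262-43532321 and chr4:43531276-43531335. An annotation of the mm9 build was not used here, so exons and UTRs are not assigned.

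Values are log2 intensities relative to the 75th percentile of the array, on which 0 is the brightness of the probe at that percentile. The arrays lay on 2 slides, scanned apart, with 2 vehicle arrays (replicates 1 and 2) and 2 AZD1480 arrays (replicates 1 and 2) on slide 1 and the other 4 (replicates 3 and 4) on slide 2. Slide 2 was the dimmer: its arrays had a 75th percentile of 1587.2 to 2782.6 intensity units, those of slide 1 one of 4705.7 to 5794.9, and 66.9% to 76.4% of spots were well above background. AZD1480 replicate 1 stood apart from the other arrays. It had the lowest limma array weight (0.198, against 0.757 to 2.34 for the others). The mean of 5 oviduct ciliated cell markers was -4.12 on it, against 1.86 to 2.48 on the other 7 arrays. Of 8 tumour epithelium markers, Epcam, Krt8, Krt18, Krt7, Pax8 and Wfdc2 were well above background on all 8 arrays and Cdh1 and Muc16 on 7. Of 9 granulosa and luteal markers, Foxl2, Inha and Star were so on all 8 arrays, Hsd3b1 on 4, Fshr and Cyp11a1 on 3 and Amh, Cyp19a1 and Lhcgr on 2. Because of AZD1480 replicate 1, differences of the contractile genes are given with and without that array. All 10 genes were well above background on all 8 arrays except Des, which was not well above background on AZD1480 replicate 2, and none of their spots was saturated.

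Cardiac actin, Actc1, was the gene of the set that set the groups apart. Its log2 values in vehicle replicates 1 to 4 were -6.20, -4.77, -5.08 and -4.15, and in AZD1480 replicates 1 to 4 they were -2.60, -3.43, -1.96 and -2.75. All AZD1480 tumours lay above all vehicle tumours, with a gap of 0.72 between the lowest treated and the highest vehicle array. As brightness, Actc1 stood at 1.36% to 5.63% of the 75th percentile in vehicle tumours and at 9.29% to 25.6% in AZD1480 tumours, a dim signal in both. The means were -5.05 ± 0.86 (SD, n = 4) and -2.68 ± 0.60 (SD, n = 4), which differ by 2.36 ± 0.47 or 5.15-fold (errors of differences are moderated SEs from limma over 4 arrays per group). The difference was 2.34 when AZD1480 replicate 1 was left out, 2.47 within slide 1 and 2.26 within slide 2. It was at the 99.97th percentile of the differences of all genes tested, a rank that the choice of the set already used. Bulk tumour RNA was measured, so more cells of a type that makes a transcript and more of it per cell cannot be told apart, here and for every gene that follows.

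The skeletal actin probe, Acta1, did not follow this pattern. Its log2 values in vehicle replicates 1 to 4 were -3.03, -1.98, -2.55 and -1.01, and in AZD1480 replicates 1 to 4 they were -4.21, -0.87, -0.11 and -1.04. The groups overlapped, because AZD1480 replicate 1 was the lowest of the 8 arrays while AZD1480 replicates 2 and 3 lay above every vehicle array. The difference was 0.58 ± 0.89 (moderated SE, n = 4 per group), less than its error. It was 1.47 when AZD1480 replicate 1 was left out, -0.04 within slide 1 and 1.20 within slide 2.

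The smooth muscle actin of vessels and activated fibroblasts, Acta2, shared with Acta1 the extremes, with AZD1480 replicate 1 the lowest and AZD1480 replicate 3 the highest array. Its log2 values were 2.88, 3.85, 3.49 and 4.78 in vehicle replicates 1 to 4 and 1.69, 4.98, 5.90 and 5.40 in AZD1480 replicates 1 to 4. AZD1480 replicates 2, 3 and 4 lay above all vehicle tumours, and AZD1480 replicate 1 lay below all of them. The difference was 0.74 ± 0.91, and without AZD1480 replicate 1 it was 1.68. Within slide 1 it was -0.03 and within slide 2 it was 1.52.

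The smooth muscle actin of visceral muscle, Actg2, had another order. Its log2 values were -3.58, -3.48, -1.12 and -2.67 in vehicle replicates 1 to 4 and -1.37, -2.52, -2.36 and -2.48 in AZD1480 replicates 1 to 4. The vehicle tumours spread over a wider range than the AZD1480 tumours, and the highest array of all was vehicle replicate 3. The difference of 0.53 ± 0.57 was 1.59 within slide 1 and -0.52 within slide 2, and it was -0.01 with limma's array weights. Without AZD1480 replicate 1 it was 0.26.

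**Figure D1:**
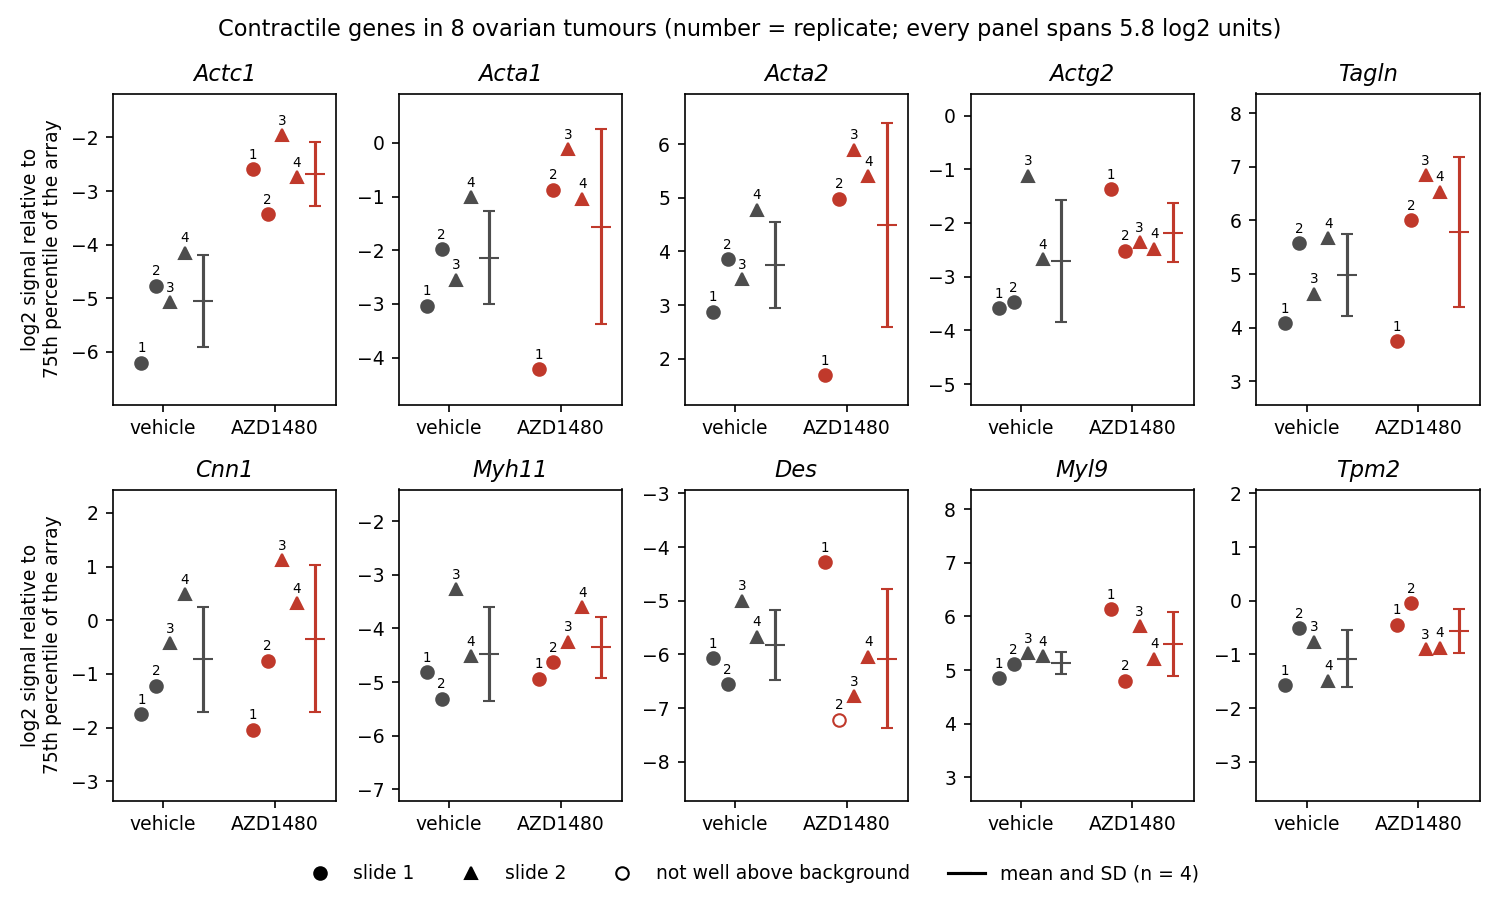
Log2 signal of the 10 contractile genes relative to the 75th percentile of the array (y axis, the same span in every panel) in 4 vehicle and 4 AZD1480 tumours (x axis). Numbers are replicates, circles and triangles are the slides, open symbols are not well above background, and bars are the mean and SD. Only for Actc1 do the groups not overlap, and AZD1480 replicate 1 is the lowest of the 8 arrays for Acta1, Acta2, Tagln and Cnn1.

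Among the thin-filament proteins, transgelin (Tagln) resembled Acta2. Its log2 values were 4.08, 5.57, 4.63 and 5.67 in vehicle replicates 1 to 4 and 3.75, 6.01, 6.84 and 6.53 in AZD1480 replicates 1 to 4. AZD1480 replicates 2, 3 and 4 again lay above all vehicle tumours and AZD1480 replicate 1 below them. The difference of 0.80 ± 0.71 was 1.47 when AZD1480 replicate 1 was left out, 0.05 within slide 1 and 1.54 within slide 2.

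Calponin 1 (Cnn1), an actin-binding marker of differentiated smooth muscle, was at -1.75, -1.22, -0.43 and 0.48 on the log2 scale in vehicle replicates 1 to 4. In AZD1480 replicates 1 to 4 it was at -2.04, -0.75, 1.12 and 0.31. Here 1 of the 4 treated tumours, replicate 3, lay above all vehicle tumours. The difference was 0.39 ± 0.75, with 0.96 without AZD1480 replicate 1 and -0.10 without AZD1480 replicate 3.

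Tropomyosin 2 (Tpm2) had log2 values of -1.57, -0.51, -0.76 and -1.49 in vehicle replicates 1 to 4 and -0.45, -0.04, -0.90 and -0.88 in AZD1480 replicates 1 to 4. Both AZD1480 arrays of slide 1 lay above the vehicle tumours and both of slide 2 lay among them. The difference was 0.51 ± 0.32, with 0.47 without AZD1480 replicate 1, and the dimmer of its 2 probes had a difference of 0.50.

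The smooth muscle myosin heavy chain Myh11, a marker of mature smooth muscle, was at -4.82, -5.31, -3.27 and -4.52 on the log2 scale in vehicle replicates 1 to 4 and at -4.93, -4.63, -4.25 and -3.60 in AZD1480 replicates 1 to 4. The treated values lay inside the vehicle range. The difference of 0.13 ± 0.47 was 0.28 within slide 1, -0.03 within slide 2 and -0.07 with limma's array weights, and it was 0.32 without AZD1480 replicate 1.

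The regulatory light chain Myl9, which is phosphorylated to start contraction, was at 4.85, 5.11, 5.31 and 5.26 on the log2 scale in vehicle replicates 1 to 4 and at 6.13, 4.80, 5.82 and 5.21 in AZD1480 replicates 1 to 4. AZD1480 replicate 1, low for Acta2 and Tagln, was the highest array for Myl9. The difference was 0.36 ± 0.30, and 0.14 without AZD1480 replicate 1.

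Desmin (Des), the intermediate filament protein of muscle, was at 1.49%, 1.06%, 3.12% and 1.97% of the brightness of the 75th percentile in vehicle replicates 1 to 4 and at 5.16%, 0.671%, 0.911% and 1.52% in AZD1480 replicates 1 to 4. AZD1480 replicate 1 was the highest of the 8 arrays and AZD1480 replicates 2 and 3 the lowest, the value of replicate 2 being not well above background. Des was the only gene of the set with a lower mean in the AZD1480 tumours, with a log2 difference of -0.26 ± 0.65, but the sign turned to 0.16 with normexp background correction and to 0.56 within slide 1, and the difference was -0.86 without AZD1480 replicate 1.

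The cytoplasmic actins, which are not part of the set, give the level of ordinary cellular actin. Actb differed by 0.31 ± 0.31 and Actg1 by 0.19 ± 0.37 between AZD1480 and vehicle tumours (log2, moderated SE, n = 4 per group). The sign of Actg1 turned to -0.03 with quantile normalization. Spots of both genes were saturated on 4 arrays.

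Counted together, 9 of the 10 genes had a higher mean in the AZD1480 tumours and 1 a lower mean, where 56.5% of all genes were higher. The median difference of the 9 genes other than Actc1 was 0.51 on the log2 scale, beside 0.04 over all genes. It was 0.47 without AZD1480 replicate 1. With any 1 array left out, the difference ranged from 0.10 to 1.47 for Acta1, from 0.28 to 1.68 for Acta2, from 0.24 to 1.06 for Actg2 and from 0.44 to 1.47 for Tagln. It ranged from -0.10 to 0.96 for Cnn1, from 0.34 to 0.70 for Tpm2, from -0.15 to 0.53 for Myh11, from 0.14 to 0.59 for Myl9 and from -0.86 to 0.12 for Des. Groups that did not overlap were found in 1 of the 10 genes, Actc1, and in 2.62% of all genes (1.22% with the AZD1480 tumours higher). A difference of at least 2-fold was likewise found in Actc1 alone, and in 7.14% of all genes (1.9% with the AZD1480 tumours higher). The rule that chose the set used this contrast, so nothing is read from these counts. By limma with Benjamini-Hochberg adjustment, 0.0% of all 19815 genes passed an adjusted p of 0.05, and 687 of them (3.47%) reached an unadjusted p of 0.05. AZD1480 replicate 3 was the highest of the 8 arrays for 5 of the 10 genes, and vehicle replicate 1 was the lowest vehicle array for 8.

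**Figure D2:**
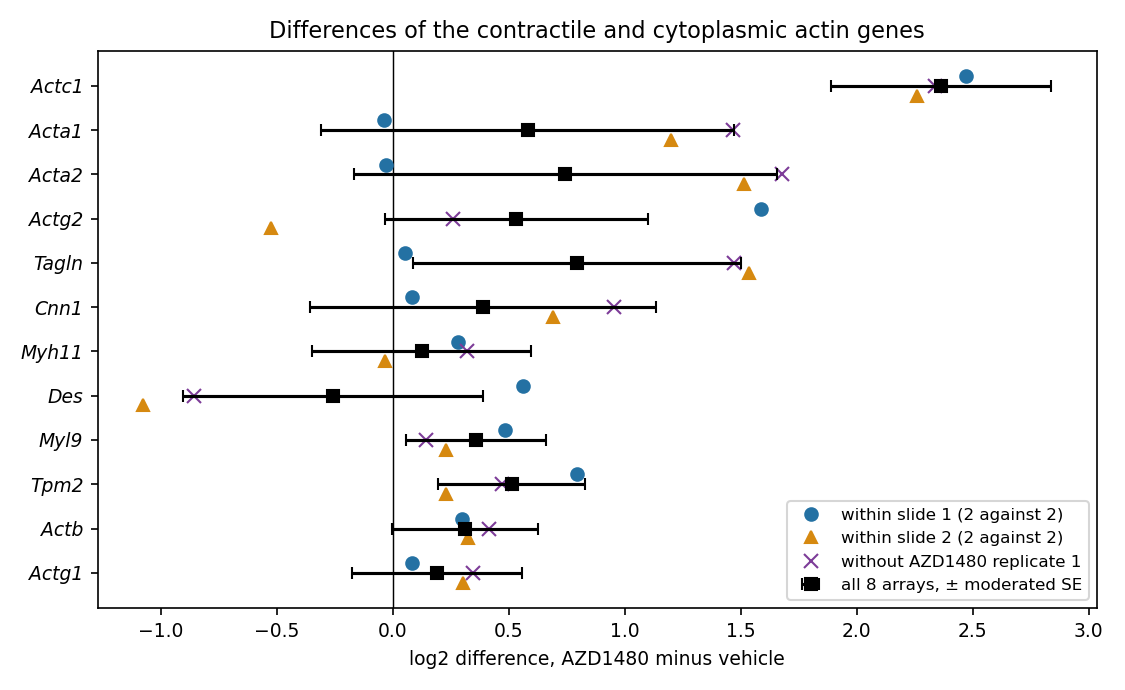
Log2 difference of AZD1480 minus vehicle tumours (x axis) for the 10 contractile genes and the cytoplasmic actins Actb and Actg1 (y axis). Squares with bars are the difference over 8 arrays with its moderated SE, blue circles and orange triangles are the differences within slide 1 and slide 2, and crosses leave out AZD1480 replicate 1. The values of Actc1 lie between 2.26 and 2.47, while Acta1, Acta2 and Tagln are near 0 within slide 1 and between 1.20 and 1.54 within slide 2.

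Within each array, Actc1 was set against the other classes of the set, which removes what an array shares over all of them. The log2 difference of Actc1 from Acta1 was -2.91 ± 0.31 (SD, n = 4) in vehicle tumours and -1.13 ± 1.87 (SD, n = 4) in AZD1480 tumours. Its shift of 1.78 between the groups rested in large part on AZD1480 replicate 1, at 1.62, and was 0.87 without that array. In 3 of the 4 AZD1480 tumours the difference from Acta1 lay above all vehicle tumours.

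Against the mean of the smooth muscle actins Acta2 and Actg2, Actc1 stood at -5.57 ± 0.60 in vehicle tumours and -3.84 ± 0.82 in AZD1480 tumours (SD, n = 4). The shift of 1.73 had an SE of 0.51 and was 1.37 without AZD1480 replicate 1. All 4 AZD1480 tumours, from -4.66 to -2.76, lay above all vehicle tumours, from -6.26 to -4.95. Against the mean of Tagln, Cnn1, Myh11, Des, Myl9 and Tpm2, Actc1 stood at -4.72 ± 0.61 and -2.67 ± 0.45 (SD, n = 4). That shift was 2.04 with an SE of 0.38, with 1.92 without AZD1480 replicate 1 and again 4 of 4 AZD1480 tumours above all vehicle tumours. These shifts were likewise known when the set was chosen and were not tested.

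How the genes varied among tumours of the same treatment does not use the treatment difference known when the set was chosen, and it was tested. The genes were picked by name as muscle actins and contractile genes. Pairs of genes outside the set were not tested beside them. Each gene's deviations from its 2 group means were correlated over the 8 arrays, with two-sided exact permutation p-values over all pairings that keep arrays within their group, adjusted over the 45 pairs of genes. Of the 6 pairs among Acta1, Acta2, Tagln and Cnn1, 4 passed. Acta1 and Acta2 had Pearson's r = 0.99 (Spearman's rho = 0.98, exact p = 0.0035, adjusted p = 0.0391, n = 8 arrays). Acta2 and Tagln had r = 0.97 (rho = 0.95, exact p = 0.0017, the smallest the pairings allow, adjusted p = 0.0391). Acta1 and Tagln had r = 0.97 (rho = 0.88, exact p = 0.0035, adjusted p = 0.0391). Acta2 and Cnn1 had r = 0.89 (rho = 0.93, exact p = 0.0035, adjusted p = 0.0391). The Acta1 probe lies in conserved coding sequence, and the part of Acta2 transcripts in its signal was not tested. Acta1 with Cnn1 (r = 0.86, adjusted exact permutation p = 0.0911, n = 8) and Tagln with Cnn1 (r = 0.84, adjusted exact permutation p = 0.1451, n = 8) did not pass. No pair beyond these 4 passed, 8 had an unadjusted p under 0.05, and by Spearman's rho 0 passed the adjustment.

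Without the 2 arrays farthest from the median of the first gene, r was 0.93 for Acta1 and Acta2, 0.90 for Acta2 and Tagln, 0.77 for Acta1 and Tagln and 0.86 for Acta2 and Cnn1. Without AZD1480 replicate 1 these values were 0.96, 0.91, 0.87 and 0.88. On 7 arrays the 144 pairings allow no p below 0.0069, and with any single array left out 0 pairs passed the adjustment. With the slide removed as well, r was 0.99, 0.97, 0.95 and 0.93 for the same 4 pairs. The pairs fell short with normexp background correction (smallest adjusted p of the exact permutation test 0.0521).

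Actc1 did not pass with any of the other 9 genes. Its r ranged from -0.12 with Tpm2 to 0.63 with Myl9, with a median of 0.36. The median over the 36 pairs without Actc1 was -0.01. The array that parted Actc1 from the Acta2 pattern was AZD1480 replicate 1, on which Actc1 deviated from its group mean by 0.09 and Acta2 by -2.80. Without it, r over 7 arrays was 0.95 for Actc1 with Acta2, 0.93 with Tagln, 0.89 with Cnn1, 0.89 with Acta1 and 0.80 with Myl9. These 5 pairs then had an unadjusted exact permutation p under 0.05 and an adjusted p = 0.1562 each (n = 7). Without vehicle replicate 1 and AZD1480 replicate 3, the arrays farthest from the median of Actc1, r with Acta2 was -0.14, and with the slide removed it was -0.01.

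Desmin had its lowest r with Acta1 (-0.76), Acta2 (-0.72) and Tagln (-0.72), none of them past the threshold (adjusted exact permutation p = 0.4753, 0.5022 and 0.4753, n = 8). Without AZD1480 replicate 1 these values were -0.11, 0.12 and -0.07, so that they rested on that array. With all 8 arrays and the slide removed as well, they were -0.96, -0.98 and -0.92. The highest r of Des was with Actg2 (r = 0.74, rho = 0.76, exact p = 0.0122, adjusted p = 0.0911, n = 8), followed by Myl9 (r = 0.71, adjusted exact permutation p = 0.4928). For Des with Actg2, r was 0.75 without AZD1480 replicate 1 and 0.76 with the slide removed. Without the 2 arrays farthest from the median of Actg2, r was 0.47.

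**Figure D3:**
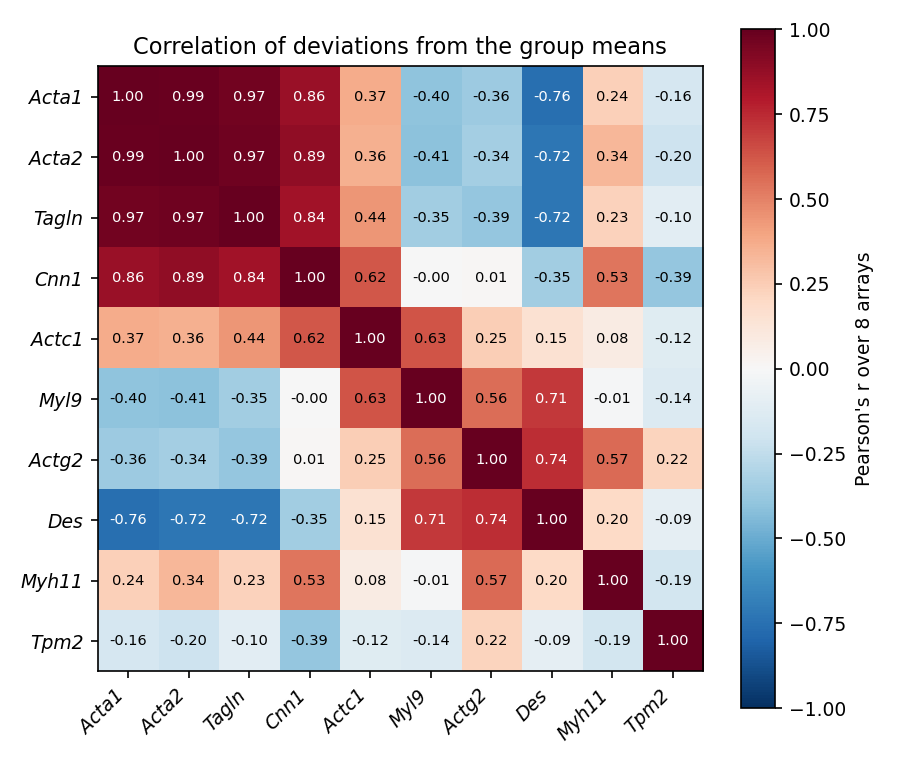
Pearson's r of the deviations from the group means over 8 arrays for each pair of the 10 contractile genes (both axes), with red for positive and blue for negative values. Acta1, Acta2, Tagln and Cnn1 form a block with r of 0.84 to 0.99, and the r of Actc1 with these 4 genes is 0.36 to 0.62.

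The slide was tested as a second source of variation, in limma with treatment and slide as terms, and 0.0% of genes passed the adjusted threshold (1 gene with median scaling and 2 genes without AZD1480 replicate 4) while 13.2% had an unadjusted p under 0.05. Slide 2 minus slide 1 was 1.81 ± 0.39 for Cnn1 (limma adjusted p = 0.2104) and 1.01 ± 0.32 for Myh11 (adjusted p = 0.3021), the 2 of the 10 genes with an unadjusted p under 0.05. It was 1.54 ± 0.79 for Acta2 (adjusted p = 0.4417) and 0.76 ± 0.42 for Actc1 (adjusted p = 0.4573). Both slides held 2 arrays of each treatment, so a shift common to the arrays of a slide cancels in the treatment differences above.

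The genes outside the set whose log2 values were most like those of Actc1 over the 8 arrays were Marchf2, Psmd8, Trip6, Loxl2 and Kctd9, with Pearson's r of 0.97, 0.97, 0.96, 0.95 and 0.95. These correlations include the treatment difference and serve as a description with no p, and 7 genes in all reached 0.95. Loxl2, a secreted enzyme that cross-links collagen, was at 0.17, 1.40, 0.62 and 1.23 in vehicle replicates 1 to 4 and at 1.92, 1.52, 2.07 and 1.83 in AZD1480 replicates 1 to 4, a difference of 0.98 ± 0.29 with no overlap. Among the other 9 genes of the set, the likeness to Actc1 by this measure was highest for Myl9 (r = 0.64). The genes most like Acta2 were Gstm5, Cnn2, Lpp, Pdlim5 and Fam110a, with r of 0.97, 0.97, 0.97, 0.97 and 0.96, and 16 genes reached 0.95. Cnn2 is a calponin of non-muscle cells, and Lpp and Pdlim5 are LIM proteins of adhesion sites and actin filaments. Within the set, Acta1 (r = 0.99) and Tagln (r = 0.97) were as close to Acta2.

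Other genes of the pathway were taken from lists, and 0 genes of these lists passed limma's adjusted threshold. Of 20 further smooth muscle contractile genes 19 were measured, and the probe of Lmod1 was dim on every array. Of these, 12 were higher and 7 lower in the AZD1480 tumours. Their median difference was 0.14 beside 0.04 for all genes (0.39 without AZD1480 replicate 1, and 0.07 without vehicle replicate 1). An unadjusted limma p under 0.05 was reached by 2 of the 19, beside 3.47% of all genes. The smallest p-values belonged to Cacna1c, the pore of the smooth muscle calcium channel (0.90 ± 0.38), to Ppp1r12b, a targeting subunit of myosin phosphatase (0.78 ± 0.33), and to Pdlim7, a LIM protein of actin filaments (0.47 ± 0.23). Cacna1c was well above background on 2 vehicle and 3 AZD1480 arrays.

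Of 17 measured genes in the list of Srf, its cofactors and targets, 12 were higher and 5 lower, with a median of 0.20. Within slide 1 that median was -0.06, without AZD1480 replicate 1 it was 0.03 and without AZD1480 replicate 2 it was 0.30. The smallest p-values belonged to Tgfb1i1, an adhesion protein that acts as a coactivator (0.69 ± 0.24, unadjusted p under 0.05), Flna, an actin cross-linker (0.43 ± 0.20), and Ccn1, a secreted matrix protein (0.57 ± 0.28). The regulators themselves, named after their values were seen, differed by -0.19 ± 0.25 (Srf), 0.19 ± 0.19 (Mrtfa), -0.17 ± 0.19 (Mrtfb) and -1.08 ± 0.96 (Myocd), each by about its error or less.

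Of 16 non-muscle actomyosin genes, 13 were higher and 3 lower, with a median of 0.20, which ranged from 0.10 without AZD1480 replicate 3 to 0.30 without AZD1480 replicate 2. The regulatory light chain Myl12a was at 5.02, 5.07, 4.86 and 5.21 in vehicle replicates 1 to 4 and at 5.65, 5.37, 5.72 and 5.46 in AZD1480 replicates 1 to 4. Its groups did not overlap, and the difference was 0.51 ± 0.15 (limma adjusted p = 0.9748). Myh9, the non-muscle myosin heavy chain, differed by 0.39 ± 0.22, and Myl6, its essential light chain, by 0.37 ± 0.21.

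Markers of muscle and of other cell types that can express contractile genes were set beside these values. Of 17 cardiac muscle genes 13 were tested, with 6 higher and 7 lower in the AZD1480 tumours and a median of -0.07 (from -0.17 without vehicle replicate 2 to -0.06 without AZD1480 replicate 3, and 0.24 within slide 2), and 0 had an unadjusted p under 0.05. Myh6, Myh7, Myl2, Myl3, Myl4, Tnnt2, Tnni3, Nppa, Nppb and Casq2 were well above background on all 8 arrays. Myl7 was so on 7 arrays, Mybpc3 on 6 and Tnnc1 on 4. Actn2, Ryr2 and Nkx2-5 were not well above background on enough arrays to be tested, and Pln was dim throughout, below that level on each array. The cardiac myosins Myh6 and Myh7 differed by -0.98 ± 0.58 and -1.46 ± 0.98 (-0.45 each without AZD1480 replicate 1), and the ventricular light chain Myl3 by 0.62 ± 0.50. The summed brightness of the list, in units of the 75th percentile, was 4.19 to 8.59 in vehicle tumours and 3.65 to 46.3 in AZD1480 tumours. Here and for the lists that follow, such sums cover all genes of a list, tested or not. The value of 46.3 was that of AZD1480 replicate 1, on which the troponin Tnni3 was at 5.21 on the log2 scale. Tnni3 was next highest, at 2.43, on vehicle replicate 1, the array with the lowest Actc1. Other cardiac genes went the other way on AZD1480 replicate 1. Myh6 was at -5.35, Myh7 at -4.89, Myl7 at -7.95 and Tnnt2 at -4.83 on it, each the lowest of the 8 arrays. The mean log2 value of the tested cardiac genes was -3.42 on it, against -4.02 to -3.04 in vehicle tumours.

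Of 25 skeletal muscle and myoblast genes 16 were tested, with 7 higher, 9 lower and a median of -0.31. That median turned to 0.05 without AZD1480 replicate 1, to 0.19 without vehicle replicate 1 and to 0.01 without AZD1480 replicate 3, and it was 0.08 within slide 2 and 0.06 with no filter on dim probes. Myh8, Tnnt1, Tnni2, Tnnc2, Actn3, Mybpc1, Mybpc2, Neb, Tcap and Mb were well above background on all 8 arrays, and the other tested genes on fewer. Myh1, Myh4 and Ttn were dim on each of the 8 arrays, and Myh3, Mylpf, Ckm, Ryr1, Myog and Pax7 were not tested either. The summed brightness was 1.98 to 3.06 in vehicle tumours and 2.21 to 5.39 in AZD1480 tumours. An unadjusted limma p under 0.05 was reached by 3 of the 16, beside 3.47% of all genes. They were Myh8, the perinatal myosin heavy chain (-1.15 ± 0.45), Tnnc2, the fast troponin C (0.67 ± 0.27), and Tcap, a cap protein of titin (1.52 ± 0.63). Tcap was highest on AZD1480 replicate 1, at -2.64, and its difference without that array was 0.91. That of Myh8 was -0.69 without it.

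Pericyte markers were lower in 8 of 10 genes, with a median of -0.18 and a summed brightness of 15.1 to 26.8 in vehicle and 11.0 to 16.6 in AZD1480 tumours. Rgs5 (-0.65 ± 0.23), Anpep (-1.78 ± 0.67) and Ndufa4l2 (1.15 ± 0.61) had the smallest p-values. The pericyte median ranged from -0.21 without vehicle replicate 3 to -0.07 without vehicle replicate 4. Fibroblast markers were lower in 8 of 11 genes, with a median of -0.12 and sums of 26.5 to 37.8 and 12.4 to 33.5, the lowest on AZD1480 replicate 1. Dcn (-1.10 ± 0.59), Lum (-1.21 ± 0.92) and Col3a1 (-0.45 ± 0.43) had the smallest p-values there. Without AZD1480 replicate 1, Lum was at -0.54, Col3a1 at -0.08 and the fibroblast median at -0.01, and without vehicle replicate 1 that median was -0.47. Endothelial markers were lower in 6 of 9 genes, with a median of -0.21 and sums of 4.39 to 6.49 and 3.22 to 6.16, and Vwf, the von Willebrand factor, differed by -1.12 ± 0.33 with no overlap. The endothelial median ranged from -0.37 without vehicle replicate 3 to -0.08 without AZD1480 replicate 4. Counted by an unadjusted limma p under 0.05, there were 2 of the 10 pericyte, 0 of the 11 fibroblast and 1 of the 9 endothelial markers, beside 3.47% of all genes.

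Leukocyte markers were lower in 5 of 7 genes, with a median of -0.38 and sums of 16.9 to 23.2 in vehicle and 10.6 to 52.6 in AZD1480 tumours. Their median ranged from -0.68 without AZD1480 replicate 3 to -0.06 without AZD1480 replicate 1. Epithelial markers of the tumour were lower in 8 of 8 genes (median -0.97, sums of 36.4 to 101.9 and 28.5 to 70.1). Their median was -0.32 without vehicle replicate 1, -0.58 and -0.59 without AZD1480 replicates 1 and 2 in turn. It was -0.39 over the markers well above background on every array and -0.18 within slide 2. Mesothelial markers were lower in 5 of 5 genes (median -0.46, sums of 30.5 to 41.5 and 26.3 to 40.4). Their median was -0.22 without vehicle replicate 1, -0.24 without AZD1480 replicate 4 and -0.26 without AZD1480 replicate 1. An unadjusted limma p under 0.05 was reached by 1 of the 8 epithelial markers, Wfdc2, and by 0 of the leukocyte and mesothelial markers.

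The granulosa and luteal list had sums of 10.2 to 33.2 and 9.89 to 36.7 over all 9 genes. It was lower in 4 of 4 genes tested (median -0.41), with Amh, Cyp19a1, Fshr, Cyp11a1 and Lhcgr not tested. The direction of this median turned with single arrays, to 0.19 without vehicle replicate 3 and 0.02 without vehicle replicate 1, and within slide 1 it was 0.58. It was -1.69 without AZD1480 replicate 1, -1.22 without vehicle replicate 4, -0.95 without vehicle replicate 2 and -0.15 without AZD1480 replicate 2. With any 1 array left out it lay between -1.69 and 0.19. Adipocyte markers had sums of 0.484 to 34.9 and 0.373 to 5.91 over all 5 genes. They were lower in 4 of 4 genes tested (median -2.23), and without vehicle replicate 3 their median was -0.999. Oviduct ciliated cell markers were lower in 5 of 5 genes (median -1.42, sums of 32.4 to 52.9 and 0.942 to 39.2), and without AZD1480 replicate 1 their median was -0.14. The part of these cell types in the values of Actc1 and the other contractile genes was not tested.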

How the data were processed

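Total RNA of 8 tumours, 4 per treatment and each from its own mouse per the labels, was measured on Agilent 1-colour arrays. Agilent Feature Extraction 9.5.3, named in the submitters' processing notes, turned the scans into intensities. Per the file headers, this software subtracted the background from the processed intensity used here. The files show no scaling from array to array. A value table that the authors deposited is on a log2 scale, whose columns share a median of 8.36 and correlate at 0.9965 to 0.9999 with the log2 mean intensity of the same array. Its offset is unknown here, and it served as an alternative only.

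From the deposited intensities, log2 values minus each array's 75th percentile over spots that are not controls were computed. Flagged spots were left out and spots of a probe averaged. Probes well above background on at least 4 of 8 arrays were kept (28338 of 39429), and the brightest kept probe stood for a gene (4895 of 19815 genes had more than 1). Names came from accessions through the current mouse gene table for 26630 probes and from the files for 8745. 4054 had none.

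The model was fitted in R 4.3.3 by limma 3.58.1, with treatment as the only term and Benjamini-Hochberg adjustment over all genes. Moderated SEs draw each gene's variance towards that of all genes. The fit was tested on simulated data. Correlations were tested by exact permutation within groups (Python 3.11.15, scipy 1.17.1). The 4 arrays per group and signal near background limit the precision. The text names all 10 genes, Actb and Actg1, and the 5 genes most like Actc1 and Acta2. Of each of 14 lists it names up to 3 genes with the smallest p and markers not above background. Detection is given by gene for the cardiac, skeletal, tumour epithelium and granulosa lists. Named after their values were seen were Srf, Mrtfa, Mrtfb, Myocd, Tnni3, Myl7 and Tnnt2. The 10 genes and the lists were chosen with earlier results of these data known. The settings varied were the background correction (normexp with offset 50), the scaling (quantile or median), no filter and a stricter filter on dim probes, the mean over probes, the slide as a covariate and within each slide, the replicate number as a block, array weights, the deposited value table and leaving out each array.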

Additional observations from a re-analysis of the deposited data

Results flagged for a closer look

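Outliers within a treatment group were sought by Dixon's test at the 95% level in 58 groups of 4 arrays, of which chance flags about 1 in 20. AZD1480 replicate 1 was the outlying array in all 3 that were found. For Actg2 it was at -1.37 on the log2 scale, above the other AZD1480 tumours at -2.52 to -2.36. The mean log2 value of the leukocyte markers was -1.66 on it, below the others at -0.44 to -0.20. The mean of the oviduct ciliated cell markers was -4.12 on it, against 1.94 to 2.04 on the other AZD1480 arrays.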

How the results depend on the processing

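The difference of Actc1 was above 0 in 20 of 20 alternatives, a count given as a description only. It ran from 1.98 to 2.66 with an array left out. Otherwise it ran from 1.80 (normexp background correction) to 2.47 (within slide 1). Because its groups did not overlap, leaving out, weighting or splitting the arrays could not turn its sign. With no filter, the stricter filter or the mean over probes it stayed at 2.36. Actc1 has 1 probe, well above background on all 8 arrays. With normexp background correction the shift of Actc1 came to 1.20 against Acta1, 1.19 against the smooth muscle actins and 1.41 against the other smooth muscle genes. In the deposited value table these shifts were 1.25, 1.32 and 1.56, and with array weights 0.93, 1.40 and 1.83. Of 45 gene pairs, 0 passed the correlation test with normexp background correction, 7 with quantile normalization (including the 4 of the main analysis) and 0 with any 1 array left out. The cause was not tested, apart from the fewer pairings that 7 arrays allow. In the treatment comparison 0 genes passed limma's adjusted threshold in the alternatives run, where unadjusted counts under 0.05 were 342 higher and 345 lower in the main analysis. The sign of Acta1 and Acta2 turned within slide 1, that of Actg2 within slide 2 and with array weights, that of Cnn1 without AZD1480 replicate 3 and that of Myh11 in 4 alternatives. The sign of Des turned without AZD1480 replicate 2 and without vehicle replicate 3, beside the settings named above, and that of Actg1 in 4 alternatives. With the filter on all 8 arrays Des was not tested.

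The replicate numbers were shared by both groups. The deviations of same-numbered arrays correlated at 0.357, 0.358, 0.127 and -0.057 for replicates 1 to 4. Vehicle replicates 1, 2 and 3 each correlated best with the AZD1480 array of the same number. Vehicle replicate 4 correlated best with AZD1480 replicate 3 (0.552). Whether the numbers pair the arrays cannot be told from these values, and the main model did not use them. With the replicate number as a block, Actc1 differed by 2.36 and 0 genes passed (421 higher and 460 lower at an unadjusted p under 0.05).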
